A study of Drosophila melanogaster with 6 samples.

Results

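Axon guidance and neural adhesion genes were examined in sorted cells of the Drosophila melanogaster larval brain after knockdown of domino (dom), the nucleosome-remodelling ATPase gene of the Tip60 complex. The 10 genes were chosen by symbol: the netrin genes NetA and NetB and the netrin receptor gene fra, the slit gene sli and the Slit receptor genes robo1 and robo2, the semaphorin gene Sema1a, the leucine-rich repeat genes trn and caps, and Dscam1. Of these 10, 6 had a row in the authors' deposited table, which held 3326 genes, all with an adjusted p below 0.05.

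Both genotypes came from mothers with insc::Gal4, UAS::CD8-GFP and, further, UAS::Dcr-2, and were kept at 25 °C. The wild type libraries were from the cross to w1118 males, and the dom knockdown libraries from the cross to males carrying w1118 with UAS::dom-RNAi, with 3 libraries each. Both therefore carried the Dicer-2 transgene, which strengthens RNA interference, the Gal4 driver and the membrane GFP, and the 2 genotypes also differ in the hairpin transgene and its parental line. The insc driver is active in neuroblasts, the stem cells of the brain, and its GFP persists in part of their progeny, so the live GFP-positive cells sorted from wandering 3rd instar brains are a mixture. The labels call the sorts triplicates and do not tell separate groups of larvae from repeat sorts, so p-values here could reflect technical spread alone.

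Growing axons steer by secreted and membrane-bound cues. Netrins attract axons through Frazzled (fra), the fly relative of DCC, and repel them through Unc-5, while Slit, released at the midline of the nerve cord, repels axons that carry Roundabout (Robo) receptors. Semaphorins act mostly through plexins, leucine-rich repeat proteins such as Tartan (trn) and Capricious (caps) take part in cell affinity and target choice, and Dscam1, an immunoglobulin (Ig) superfamily receptor with an exceptionally large set of splice forms, lets sister branches of a neuron recognise and avoid each other.

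The values below are those of 1 comparison over all 6 libraries, and values per library were not used here because the table held none. The header of the ratio puts the control first, so all signs were reversed here and ratios are knockdown over wild type. With that sign dom itself was lower in the knockdown, at a log2 ratio of -0.58 with a standard error (SE) of 0.11 per the authors' deposited table (adjusted p 7.88e-07 by DESeq2). With the same sign w, the eye colour gene that commonly marks fly transgenes, was 2.50-fold higher (log2 1.32, SE 0.13, adjusted p 1.78e-21 by DESeq2, per the authors' deposited table) in the genotype with the additional transgene. Since dom helped to settle the sign, it is no check of the labels, and if the header order were the reverse, every direction given here would swap. Mean normalized counts over all libraries ranged from 4.47 to 700435, and read depth per library is unknown.

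Of the 10 genes, 4 were higher in the knockdown (NetA, robo2, trn and caps), 2 were lower (Dscam1 and robo1) and 4 had no row (NetB, fra, sli and Sema1a). Over all 11859 genes behind the authors' adjustment, 28.0% were listed, 13.9% as higher and 14.2% as lower. The genes were chosen with these results in view, so their share of 60.0% says nothing about guidance genes as a class. Below an adjusted p of 0.01, 5 of the 10 passed, all but robo1 of those listed, against 19.7% of the genes tested. The change of each listed member was under 2-fold in either direction. The median log2 ratio was 0.41 over the 6 listed genes and -0.20 over all listed genes, of which 49.5% were higher. By direction, the median was 0.44 for the 4 higher members and 0.91 for all higher listed genes. For lower genes it was -0.53 over the 2 members and -0.46 over all listed. A member without a row either was not tested or lay less than 2.46 standard errors from no change, the smallest Wald statistic in the table, and its ratio is unknown. Of the listed members robo1 lay nearest to the threshold, with an adjusted p of 0.0399 per the authors' deposited table, and no value exists for a member outside it.

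**Figure D1:**
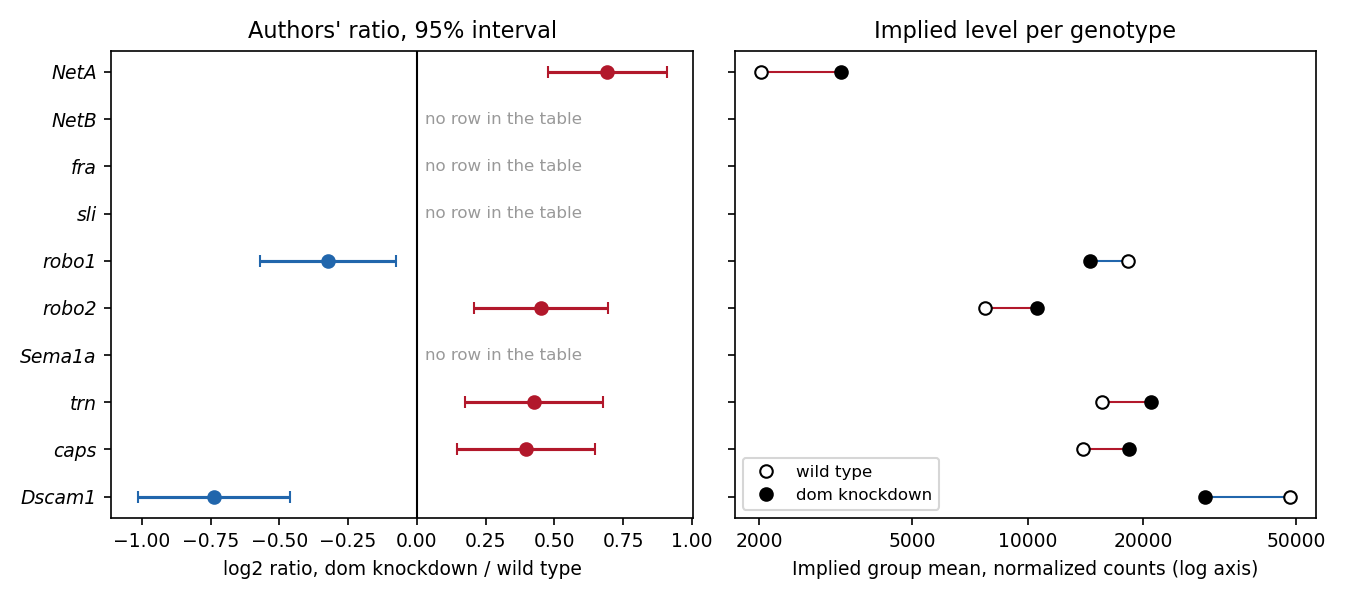
Left, log2 ratio of dom knockdown over wild type for the 10 genes, with 95% intervals from the authors' standard errors (red higher, blue lower; genes without a row carry no point). Right, the level in each genotype implied by the mean normalized count and the ratio (open circles wild type, filled circles knockdown, log axis). Of the listed genes NetA had the largest increase (0.69) and Dscam1 the largest decrease (-0.74). No interval of a listed gene can include 0, since the table holds only genes that passed the threshold (smallest Wald statistic 2.46).

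NetA (FBgn0015773, dm6 X:14604012-14653928, minus strand, protein coding) encodes one of the fly's netrins, secreted laminin-related cues. Its mean normalized count was 2647, which with its ratio implies about 2023 in wild type and 3271 in the knockdown. That is a 1.62-fold increase, with a log2 ratio of 0.69 (SE 0.11, 95% interval 0.48 to 0.91, adjusted p 7.97e-09 by DESeq2) per the authors' deposited table, the smallest p of the listed members. Such implied levels assume an unshrunken ratio between the means of 3 and 3 libraries, and carry no error of their own. The other netrin gene, NetB (X:14686038-14749376, minus strand), lies on the same arm with CG5321 between them, and had no row, so the netrin genes could not be compared with each other. The protein-coding neighbour of NetA on its other side, sbm, 1.43 kb away, was also higher, at a log2 ratio of 0.49 (SE 0.13) per the authors' deposited table, while CG5321 was not listed.

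Of the receptors of netrin, fra (2R:12529053-12564184, plus strand) had no row. The repulsive receptor gene unc-5 was 1.37-fold higher (log2 0.46, SE 0.12, adjusted p 0.00135 by DESeq2 per the authors' deposited table). Dscam1, which can also act as a netrin receptor, was lower. The ratio of NetA exceeded that of unc-5 by 0.24 on the log2 scale, with an interval of -0.09 to 0.56 that includes no difference. Intervals of differences take the errors of the genes as independent, which was not tested, since both ratios come from the same libraries.

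The listed Slit receptor genes were robo1, which was lower, and robo2, which was higher. The gene robo1 (FBgn0005631, 2R:22692524-22700970, minus strand) was lower, at 0.800 times the wild type level (log2 -0.32, SE 0.13, interval -0.57 to -0.07, adjusted p 0.0399 by DESeq2 per the authors' deposited table). Its mean normalized count was 16388, with implied levels of 18209 in wild type and 14567 in the knockdown. Its call was lost below an adjusted p of 0.01 and with all ratios shifted by +0.1 on the log2 scale. The gene robo2 (FBgn0002543, 2L:1380086-1420453, minus strand), whose product has roles in lateral pathway choice beside midline repulsion, was 1.37-fold higher (log2 0.45, SE 0.12, interval 0.21 to 0.69, adjusted p 0.00192 by DESeq2 per the authors' deposited table). Implied levels of robo2 were 7757 in wild type and 10603 in the knockdown. The difference between the log2 ratios of robo2 and robo1 was 0.77 (SE 0.18, interval 0.43 to 1.12). Of the exon bases of robo2, 41.0% are shared with annotated noncoding genes, 22.9% with one on the other strand, and without a stated strand setting their reads cannot be told apart. For robo1 no exon base is shared. The protein-coding genes next to robo1 and robo2 on either side (Ppa, CG30259, CG14346 and CG43401) were not listed.

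The ligand gene sli (2R:15869495-15922118, minus strand) and the third receptor gene robo3 had no row. Of the 11 genes in the Slit and Robo list, which includes chosen members, 5 were listed (45.5%, against 28.0% of all genes tested). Of the 5, 3 were higher and 2 lower. Beside robo2, the higher ones were Sdc, which encodes the heparan sulfate proteoglycan Syndecan that takes part in Slit signalling (log2 0.41, SE 0.11), and comm (log2 0.26, SE 0.10), whose product keeps Robo off the growth cone surface, per the authors' deposited table. RhoGAP93B, the gene of a GTPase-activating protein that binds Robo, was lower with robo1, at a log2 ratio of -0.24 (SE 0.08) per the authors' deposited table. The related genes comm2 and comm3 and the glypican genes dally and dlp had no row.

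Sema1a (2L:8542147-8672041, plus strand), the gene of a transmembrane semaphorin that acts as ligand and as receptor, had no row, and neither did the plexin genes PlexA and PlexB. Of 10 semaphorin and plexin pathway genes 3 were listed (30%, against 28.0% of all genes tested). The secreted semaphorin gene Sema2a was lower, at 0.675 times the wild type level (log2 -0.57, SE 0.08, adjusted p 7.54e-12 by DESeq2 per the authors' deposited table). The genes of the plexin partner Off-track (otk) and of Mical, an enzyme that oxidises actin downstream of plexins, were higher, with log2 ratios of 0.41 (SE 0.13) and 0.25 (SE 0.09) per the authors' deposited table. Among 8 genes of ephrin and Wnt guidance 2 were listed (25%, against 28.0% of all genes tested), both higher. They were drl, which encodes a Ryk family receptor for Wnt5 (log2 0.54, SE 0.14), and the Wnt receptor gene fz (log2 0.48, SE 0.12), per the authors' deposited table.

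The related leucine-rich repeat genes trn and caps were both higher. The gene trn (FBgn0010452, 3L:13114271-13118077, plus strand) was 1.34-fold higher (log2 0.43, SE 0.13, interval 0.17 to 0.68, adjusted p 0.00503 by DESeq2 per the authors' deposited table), with implied levels of 15595 in wild type and 20939 in the knockdown. The gene caps (FBgn0023095, 3L:13228692-13279642, plus strand) was 1.32-fold higher (log2 0.40, SE 0.13, interval 0.15 to 0.65, adjusted p 0.00974 by DESeq2 per the authors' deposited table), with implied levels of 13958 and 18378. Their ratios differed by 0.03 on the log2 scale, with an interval of -0.33 to 0.38, which does not show that they responded equally. With all ratios shifted by -0.1 on the log2 scale caps no longer passed and trn did. The protein-coding genes next to trn and caps on either side (CG11251, CG33262, snky and Sfp70A4) were not listed.

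Of 20 genes for leucine-rich repeat surface proteins, which include the chosen trn and caps, 6 were listed (30%, against 28.0% of all genes tested). Of the 6, 5 were higher and 1 was lower, with a median log2 ratio of 0.43. These counts and the median include trn and caps, so they are not separate from the chosen genes. The higher ones outside the chosen genes were Toll-7, kek5 and Lgr1. Toll-7, a Toll family receptor gene, was higher at a log2 ratio of 0.48 (SE 0.10) and kek5, of the Kekkon family, at 0.43 (SE 0.14), and kek4 was lower at -0.95 (SE 0.21), per the authors' deposited table. The receptor gene Lgr1 had the largest ratio of the list, 2.73 (SE 0.40), at a mean normalized count of 47.2 per the authors' deposited table. Con, haf, 18w, Toll-6 and Tollo were among the 14 without a row.

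Dscam1 (FBgn0033159, 2R:7317924-7381899, minus strand) had the largest change of the 6 listed members. Its level in the knockdown was 60.0% of that in wild type (log2 -0.74, SE 0.14, interval -1.01 to -0.46, adjusted p 2.88e-06 by DESeq2 per the authors' deposited table). Its mean normalized count of 38553, the highest of the listed members, implies 48201 in wild type and 28904 in the knockdown. The annotation gives it 75 transcripts and 115 separate exon blocks, and a gene count does not show which splice forms changed. Its protein-coding neighbour cos, the gene of the Hedgehog pathway kinesin Costal-2, 0.277 kb away, was also lower, at a log2 ratio of -0.45 (SE 0.08) per the authors' deposited table. The protein-coding neighbour on the other side, CG12164, 4.43 kb away, was not listed. Of the Dscam1 exon bases 3.85% are shared with antisense RNA genes.

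The other listed Dscam genes went the other way. Dscam3 was 1.60-fold higher (log2 0.68, SE 0.19, adjusted p 0.00260 by DESeq2) and Dscam2, which acts in the spacing of neighbouring axon arbors, was 1.47-fold higher (log2 0.56, SE 0.19, adjusted p 0.0191 by DESeq2), per the authors' deposited table. The log2 ratio of Dscam3 exceeded that of Dscam1 by 1.42 (interval 0.95 to 1.88), and that of Dscam2 by 1.29 (interval 0.82 to 1.76). Dscam3 and Dscam2 differed by 0.12 (interval -0.41 to 0.66). Dscam4 had no row.

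Per kilobase of exon, the order of the listed members by mean normalized count over all libraries was trn (5429), caps (3340), robo1 (2413), robo2 (1479), Dscam1 (1455) and NetA (792). These levels divide by all annotated exon bases, which lowers genes with many alternative exons such as Dscam1, and the spread over libraries is not known for them. The standard errors of the ratios ran from 0.11 for NetA to 0.14 for Dscam1. Among listed genes within 1.5-fold of each member's mean count the median SE was 0.09 to 0.11, so 5 of the 6 members, all but NetA, had larger errors than listed genes of their abundance.

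**Figure D2:**
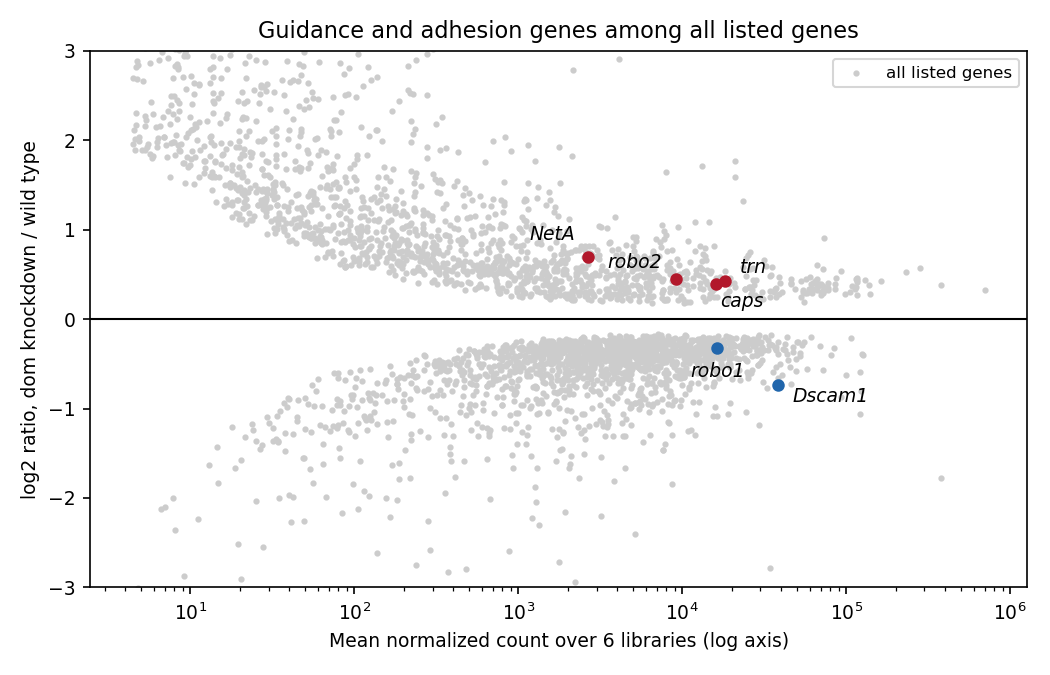
Each grey point is 1 listed gene, by its mean normalized count over 6 libraries (log axis) and its log2 ratio of knockdown over wild type. The 6 listed guidance and adhesion genes are coloured (red higher, blue lower), and 140 genes beyond a log2 ratio of 3 in either direction lie outside the plot. The empty band around 0 is where genes did not pass the threshold, and of the members robo1 lies nearest to it. NetA and Dscam1 had larger changes than 55.8% and 58.7% of listed genes.

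Most listed genes as abundant as the members were lower. Among 1218 listed genes whose mean normalized count ran from 2647 to 38553, 25.2% were higher and the median log2 ratio was -0.32. Over that range 28 of 36 other listed genes of the guidance and adhesion lists, without growth cone effectors, were higher (77.8%), with a median of 0.46. These lists were chosen with earlier results of the data known. Their union was formed after the values were seen, so the contrast is descriptive and says nothing about such genes as a class. Shifting all ratios by 0.1 up or down on the log2 scale changed the share of higher genes in the whole table from 49.5% to 60.8% or 41.2%. A shift could only remove genes, since those without a row have no ratio. These shares are therefore not those of a shift over all genes tested. The upward shift ended the call of robo1 and the downward shift that of caps.

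Wider families of neural adhesion molecules were listed mostly as higher. Outside the 10 chosen genes, the 12 lists of cues, receptors and adhesion molecules held 148 genes, of which 54 were listed (36.5%, against 28.0% of all genes tested), 41 higher and 13 lower. The union of these lists was formed after the values were seen. The lists are unlike the whole table in abundance, and a larger share listed can come from smaller errors at high counts, which was not tested.

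Beat and Side proteins are Ig superfamily partners that guide motor axons. Of their 22 genes 10 were listed (45.5%, against 28.0% of all genes tested). Of the 10, 8 were higher and 2 lower, with a median log2 ratio of 0.47. The higher ones numbered 3 below an adjusted p of 0.01, and 3 with all ratios shifted by -0.1 on the log2 scale. By the smallest adjusted p, the leading higher ones were beat-IIa (log2 1.09, SE 0.14), beat-VII (log2 1.03, SE 0.16), side-V (log2 0.76, SE 0.16) and side (log2 0.56, SE 0.19), all higher, per the authors' deposited table. The lower ones were side-VII (log2 -0.96, SE 0.17) and beat-IIIc (log2 -0.48, SE 0.10) per the authors' deposited table.

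Dpr and DIP proteins, which bind each other in many pairs between synaptic partners, had 16 of 32 genes listed (50%, against 28.0% of all genes tested). Of the 16, 11 were higher and 5 lower, with a median log2 ratio of 0.53. DIP-lambda, dpr12 and DIP-epsilon were higher, with log2 ratios of 1.05 (SE 0.19), 0.67 (SE 0.16) and 0.54 (SE 0.11) per the authors' deposited table. The genes dpr14, dpr21 and DIP-beta were lower, with log2 ratios of -1.45 (SE 0.16), -1.06 (SE 0.14) and -0.84 (SE 0.18) per the authors' deposited table. Both subfamilies had members in both directions.

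Among 18 other Ig adhesion genes, which include otk, 8 were listed (44.4%, against 28.0% of all genes tested). Of the 8, 6 were higher and 2 lower, with a median log2 ratio of 0.41. With all ratios shifted by -0.1 on the log2 scale, 3 higher ones remained. Neuromusculin (nrm) fell by 1.29 on the log2 scale (SE 0.12) and the contactin gene Cont, of the septate junction, fell by 0.37 (SE 0.11) per the authors' deposited table. Lachesin (Lac), roughest (rst) and sticks and stones (sns) were higher, with log2 ratios of 0.66 (SE 0.16), 0.60 (SE 0.14) and 0.49 (SE 0.14) per the authors' deposited table. Fas2 and Nrg, long-known adhesion molecules of axon bundles, had no row.

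Of 16 cadherin genes 5 were listed (31.25%, against 28.0% of all genes tested), all higher, with a median log2 ratio of 0.46. They were Cad88C (log2 0.93, SE 0.24), shg, which encodes E-cadherin (log2 0.46, SE 0.17), CadN2 (log2 0.46, SE 0.18), Cad87A (log2 0.39, SE 0.08) and kug (log2 0.32, SE 0.11) per the authors' deposited table. Below an adjusted p of 0.01, and with all ratios shifted by -0.1 on the log2 scale, Cad87A and Cad88C alone remained. CadN and the flamingo gene stan had no row. None of the 6 receptor tyrosine phosphatase genes of axon guidance, Lar among them, was listed. Of 8 teneurin, neurexin and neuroligin genes Nrx-1 was the listed one, and it was lower (log2 -0.65, SE 0.15, per the authors' deposited table).

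**Figure D3:**
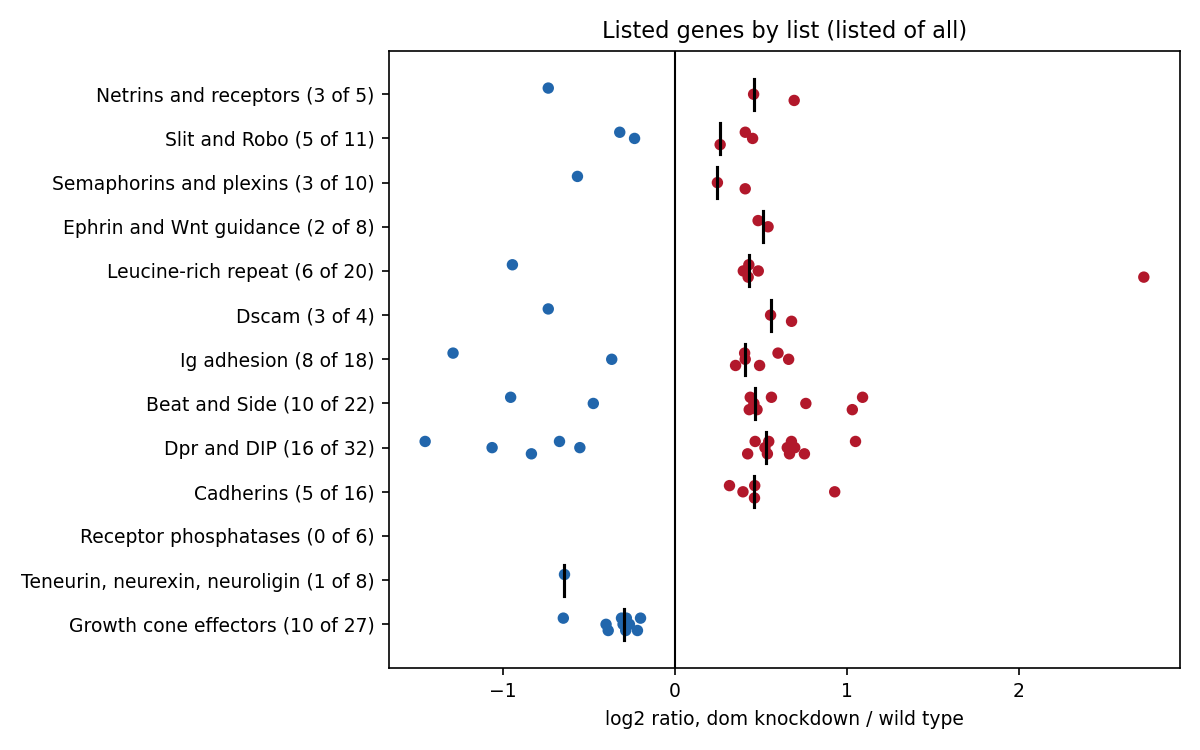
Log2 ratio of knockdown over wild type for each listed gene (points, red higher, blue lower) of the 13 lists, with the number listed of all genes in the list; black bars are the medians over listed genes. Points of the cue, receptor and adhesion lists lie on both sides with most to the right, and the 10 listed growth cone effectors all lie to the left. Some genes stand in more than 1 list.

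Cytoplasmic effectors that carry guidance signals to the growth cone's actin were listed as lower only. Of 27 such genes 10 were listed and all 10 were lower, with a median log2 ratio of -0.30 and a range from -0.65 to -0.20, where 28.0% of all genes tested were listed and 14.2% were lower. The count of lower effectors was 5 below an adjusted p of 0.01 and 4 with all ratios shifted by +0.1 on the log2 scale. In the members' range of abundance the effectors were 9 of 9 lower, where 911 of all 1218 listed genes were lower. The median log2 ratios in that range were -0.29 for the effectors and -0.32 for all listed genes. Examples are ssh, the gene of the cofilin phosphatase Slingshot (log2 -0.40, SE 0.08), SCAR and Cyfip of the WAVE complex (log2 -0.39 and -0.31, SE 0.09 for both), the GTPase gene Rac1 (log2 -0.29, SE 0.07) and the coronin gene pod1 (log2 -0.30, SE 0.10) per the authors' deposited table. The Rac exchange factor gene sif had the largest decrease (log2 -0.65, SE 0.17, per the authors' deposited table), and 71.9% of its exon bases also belong to other annotated genes. Abl, trio, dock, Pak and Rho1 were among the 17 without a row.

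Most of the 10 genes are long. Their median span from first to last exon was 50.4 kb, against 3.65 kb for the 3000 listed protein-coding genes and 2.16 kb for all 13986 annotated ones. The span ranged from 3.81 kb in trn to 130 kb in Sema1a, and the exceptions were trn and robo1 (8.45 kb), whose introns make up 11.6% and 19.6% of the gene. Introns were 93.3% of NetA, 90.5% of caps, 84.6% of robo2 and 58.6% of Dscam1.

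Direction varied with span across the table. Where the mean normalized count was at least 2000, the share of listed protein-coding genes that were higher was largest in the shortest and the longest genes: 52.9% of 210 genes under 2 kb, 22.0% at 2 to 5 kb, 12.6% at 5 to 10 kb, 21.4% at 10 to 20 kb, 38.1% at 20 to 50 kb and 60.8% of 74 genes over 50 kb. With no minimum count the shares ran the same way between the ends, from 64.1% under 2 kb through 29.1% at 5 to 10 kb to 50.6% at 20 to 50 kb and 66.0% over 50 kb. NetA (49.9 kb) and caps (51.0 kb), both higher, fall on either side of a class limit. The shortest member, trn, was higher and the longest listed member, Dscam1, was lower. Beside NetA and caps, robo2 (40.4 kb) was higher, and robo1 (8.45 kb) was lower. Whether direction went with span among the 6 was not tested. At 20 kb or more and a mean of at least 2000, 24 of 29 genes of the cue, receptor and adhesion lists outside the members were higher (82.8%), and 79 of 199 genes outside all the lists were (39.7%). Below 20 kb the counts were 8 of 14 (57.1%) and 289 of 1187 (24.3%). Since the lists were joined after the values were seen, these shares are descriptive and say nothing about such genes as a class.

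**Figure D4:**
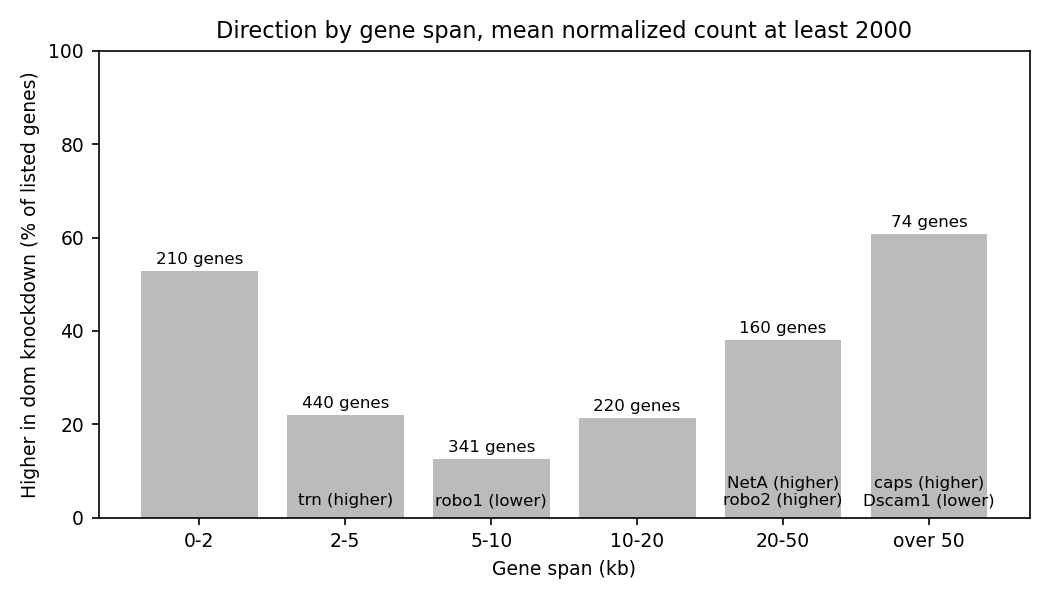
Share of listed protein-coding genes that were higher in the knockdown, by gene span in kb, restricted to mean normalized counts of 2000 or more; the number of genes stands above each bar, and the members with their direction stand in the bar of their class. The share was 52.9% under 2 kb, lowest at 5 to 10 kb (12.6%) and highest at over 50 kb (60.8%).

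Some markers of neurons, glia, neuroblasts and blood cells also differed between the genotypes. Their counts stand beside 28.0% of all genes tested as listed, 13.9% as higher and 14.2% as lower. Whether glia or blood cells were part of the sorted cells was not tested. The sums given here cover the listed markers alone, since the others have no value. Of 20 neuron markers 9 were listed, all lower, with log2 ratios from -2.71 to -0.47 per the authors' deposited table, and the implied summed level of those 9 was 349311 in wild type and 217182 in the knockdown. Of 12 glia markers 5 were listed, all higher (0.56 to 1.94), with sums of 5996 and 10735. Among 10 neuroblast markers 4 were higher and grh was lower, with sums of 27989 and 38917 over the 5 listed, and of 8 markers of blood cells 4 had a row, each lower (-4.77 to -0.80), with sums of 8222 and 3569. The sums rest mostly on the most abundant genes of each list. From wild type to knockdown, implied levels were 120804 and 66221 for fne of neurons and 3220 and 5314 for gcm of glia. They were 13459 and 18507 for nab of neuroblasts, and 6727 and 2958 for Pxn of blood cells. The defining markers elav of neurons and dpn of neuroblasts had no row, and neither did ase, mira, klu and insc of neuroblasts. The glia marker repo was higher (log2 0.56, SE 0.16, per the authors' deposited table). The part of such shifts in the ratios of the guidance and adhesion genes was not tested, and in sorted bulk RNA fewer cells of a type and less RNA per cell cannot be told apart.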

How the data were processed

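Total RNA of sorted cells was extracted with TRIzol and made into Illumina TruSeq libraries, per the labels' protocols. The submitters' processing notes name STAR 2.3.0e, HTSeq 0.6.1, SAMtools 0.1.19, FastQC 0.11.2 and DESeq2, and build dm6. The version of DESeq2, the annotation, the counting settings and any shrinkage of ratios were not given in the sources used here. Per the file headers, the authors deposited for each gene a mean normalized count (a signal over libraries), a log2 ratio, its standard error on the log2 scale, a Wald statistic (a score) and p-values. Read depth per library is unknown, and precision is known only through the standard errors (0.06 to 0.79).

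The table was decoded from UTF-7 and signs were turned (Python 3.11.15, pandas 2.3.3, scipy 1.17.1). Adjusted p times rank over p gave 11859 tests, within 0.01 in 2883 of 3326 rows, a step tested on simulated data. Symbols matched 3264 IDs and 62 stayed unnamed, so counts within lists are minimums. Positions, 1-based, came from Ensembl release 115 (BDGP6, dm6 coordinates). Spans and shared exon bases use its exons of all biotypes. Intervals are 95% normal limits. Lacking values for each library, no limma fit was made, and the DESeq2 comparison of the authors is the test throughout. The members, lists and tests were chosen with earlier results of these data known. Named genes are the members and, per list, up to 6 others with the smallest adjusted p. Others are named only as without a row, as neighbours or as markers. Alternatives were a threshold of 0.01, shifts of all ratios by 0.1 in each direction, and a minimum mean of 50.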

Additional observations from a re-analysis of the deposited data

How the results depend on the processing

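No paired analysis was possible because the table held 1 comparison and no values per library. For the same reason leaving out single libraries, another scaling and another pseudocount were not run. None of the alternatives could reverse a listed member, whose ratios all exceed the shift, so they bear on calls alone. A minimum mean normalized count of 50 moved no count by over 1.5 times, but it could hardly do so. The lowest mean of a listed member was 2647, and of the listed genes in the 13 lists Lgr1 alone (47.2) lay below 50. Below an adjusted p of 0.01, robo1 (log2 -0.32) no longer passed, so 1 member was lower in place of 2. The lower genes of the Slit and Robo list then numbered 0, the higher ones of the semaphorin list 1, of the Dscam list 1, of the Beat and Side list 3 and of the cadherins 2, and the lower growth cone effectors 5. With all log2 ratios shifted by +0.1, robo1 (log2 -0.22) again did not pass, leaving 1 lower member, 0 lower genes of the Slit and Robo list and 4 lower growth cone effectors. With a shift of -0.1, caps (log2 0.30) no longer passed, leaving 3 higher members in place of 4. The higher genes then numbered 0 in the semaphorin list, 3 in the leucine-rich repeat list, 1 in the Dscam list, 3 in the Ig adhesion list, 3 in the Beat and Side list and 2 among the cadherins. A shift can only remove genes, since those without a row have no ratio.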
